A study of Mus musculus with 8 samples.

Results

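The 8 genes described here, Adam10, Adam17, Iqgap1, Rhoa, Mapre1, Srf, Lamc1 and Ptpn1, have been published as targets of miR-122 and act in the shedding of surface proteins, in adhesion and in the cytoskeleton. They were found on the arrays through the RefSeq accession that each probe carries, which gave 13 probes out of 55681 experimental probes. All 13 probes passed the filter on dim signals, so that all 8 genes were among the 14312 genes tested. RNA of 8 hepatocellular carcinomas (HCC) of male miR-122 KO mice, labelled with Cy5, was set against liver RNA of male miR-122 floxed mice of matched age, labelled with Cy3, on 8 Agilent arrays of 2 colours that lay on 1 slide. Both groups had a mixed C57BL/6J and 129S/Svj background, and the labels give no age and do not say how the knockout was made. The labels number the tumors as biological replicates without naming animals. Whether the control channel held 8 livers or 1 pool is not stated, so the p-values may leave out the spread of the control. No array had the dyes swapped, no tumor-free KO liver was measured, and miR-122 itself was not analysed here. An effect of the dyes, of the missing microRNA and of tumor growth therefore cannot be told apart in any ratio below.

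A microRNA guides a protein complex to partly complementary sites in messenger RNA, mostly in the part after the coding sequence, and lowers the stability and translation of that RNA. miR-122 is the most abundant microRNA of hepatocytes, and genes with sites for it tend to be expressed at a lower level in normal liver than in tissues without it. The genes named here meet in processes that epithelial cells use to hold on to each other and to the matrix and to move: proteases cut adhesion molecules and growth factors from the surface, scaffolds tie actin to cell junctions, and SRF turns on actin genes when free actin runs low.

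On the arrays 40.0% to 53.3% of experimental spots were well above background in the HCC channel and 46.5% to 55.5% in the control channel. The upper quartile of background-subtracted intensity was 151 for tumor 8, the dimmest, and 315 to 543 for the other tumors. The control channel of array 8 also stood apart by skeletal muscle transcripts, whose list mean was 12.98 on the log2 scale there and 6.79 to 7.04 on the other arrays. In the HCC channel this list mean was raised on array 8 as well, at 9.28, against 6.83 to 7.03 on the other arrays. Only 5 of 15 muscle markers passed the filter. The controls of arrays 1 and 2 correlated at r = 0.995 over all genes, against at most 0.992 for any other pair. All 10 hepatocyte markers, albumin (Alb) and Hnf4a among them, were well above background on all arrays in both channels. Values without array 8, without arrays 7 and 8, and with arrays 1 and 2 averaged are given in the closing section, or beside a result where they change its call.

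Calls of higher or lower in HCC required a 2-fold difference (1 on the log2 scale) together with an adjusted p under 0.05. Of the 8 genes, 3 were called higher (Iqgap1, Lamc1 and Adam10) and 0 lower, where 9.54% of all genes tested were called higher and 5.94% lower. A further 3 genes (Mapre1, Srf and Rhoa) had an adjusted p under 0.05 with a positive ratio below 2-fold, so that 6 of 8 passed on the p alone, where 28.7% of all genes did so in that direction and 25.1% in the other. These counts use the brightest probe of each gene: the other probe of Rhoa gave -0.32 and that of Srf 0.02, and 4 of 8 genes passed on the p with a positive ratio at every probe. Ptpn1 and Adam17 did not pass. The median log2 ratio of the 8 genes was 0.82, or 0.53 when all tested probes of a gene were averaged, and that of all genes tested was 0.03. The members were chosen with earlier results of these data known, so these counts and medians describe the 8 genes and are no test of the group.

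**Figure D1:**
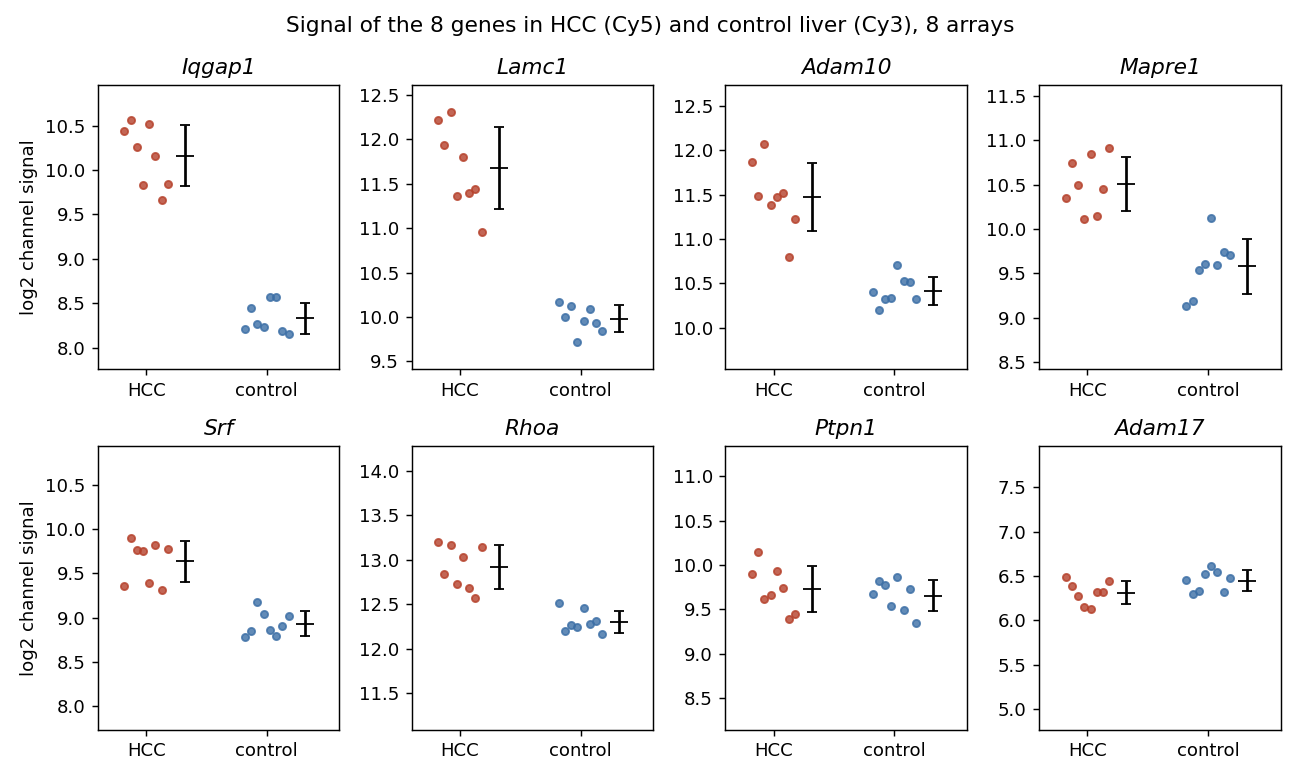
Log2 channel signal (y axis) of the brightest probe of each gene on 8 arrays, with HCC (Cy5) left and control liver (Cy3) right. The mean and SD are beside the points, and the control points may come from a pool. Each panel spans the same range of log2 units around its own middle, and levels are not comparable between genes. The HCC points of Iqgap1, Lamc1, Adam10, Srf and Rhoa lie above all control points, while those of Mapre1 touch one control and those of Ptpn1 and Adam17 mix with the controls.

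Iqgap1 encodes a scaffold that binds actin, calmodulin, Rac1, Cdc42 and beta-catenin at the leading edge and at cell junctions. Its channel signals on the log2 scale ran from 9.67 to 10.56 with a median of 10.21 in HCC, against 8.16 to 8.57 with a median of 8.25 in control liver. The lowest tumor thus stood more than 1 log2 unit above the highest control. Its log2 ratios ran from 1.48 on array 7 to 2.23 on array 1, with a median of 1.81. The mean log2 ratio was 1.83 ± 0.28 (SD, n = 8), a rise of 3.55-fold (adjusted p = 1.97e-06). Of all genes, 8.31% had HCC values that lay all above the control values and 8.47% all below. At their brightest probes, 5 and 0 of the 8 genes described here did so. The groups overlapped at the other probe of Srf (9.03 to 9.54 in HCC, 8.84 to 9.46 in controls). They also overlapped at the other probe of Rhoa (10.03 to 10.85 in HCC, 10.45 to 10.86 in controls).

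The paralogs of Iqgap1 went different ways. Iqgap2, which is the IQGAP of normal hepatocytes, fell by 1.18 ± 0.46 (adjusted p = 1.96e-04) and was below 0 on all 8 arrays. Iqgap3, known from proliferating cells, was well above background in 8 tumors and in no control, and was at least 2.74-fold higher in HCC (adjusted p = 4.14e-05). The log2 ratio of Iqgap1 exceeded that of Iqgap2 by 3.01 ± 0.57 on 8 of 8 arrays (exact sign-flip test, adjusted p = 0.0156, from the smallest p that 8 arrays allow). The difference between Iqgap1 and Iqgap3, 0.37 ± 0.48, did not pass (exact test, adjusted p = 0.104). Among 28 tested genes of the IQGAP family and adherens junctions, 5 rose and 1 fell (17.9% and 3.57%), and their median ratio was 0.12. Ezr, which links actin to the membrane, rose by 1.61 ± 0.97 (above 0 on 7 arrays), and E-cadherin (Cdh1) rose by 1.46 ± 1.00.

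Lamc1 encodes the laminin gamma-1 chain, a part of most laminin trimers of basement membranes. The signals of Lamc1 ran from 10.96 to 12.31 with a median of 11.62 in HCC, against 9.72 to 10.17 with a median of 9.98 in control liver. Every tumor lay above every control, and tumor 8 was the lowest of the tumors. Its log2 ratios ran from 1.12 on array 8 to 2.18 on array 3, with a median of 1.74. Lamc1 rose by 1.70 ± 0.37 (3.25-fold, adjusted p = 9.01e-06). The ratios of Iqgap1 and Lamc1 differed by 0.13 ± 0.23, within their spread (exact test, adjusted p = 0.208). With the scanner's processed signals the difference was 0.35 and passed (exact test, adjusted p = 0.0365).

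Of 22 tested genes of other laminin chains and their partners in the basement membrane, 11 rose, 1 fell (Lama1) and 10 were not called, and their median ratio was 1.03. Among those not called were the chains Lama3 (-0.48 ± 0.99), Lama4 (0.79 ± 0.92) and Lamb3 (0.22 ± 1.41). Lama5, the alpha chain that joins gamma-1 in the laminins of adult epithelia, rose by 2.90 ± 1.00, and its ratio exceeded that of Lamc1 on 7 of 8 arrays (the difference of Lamc1 minus Lama5 was -1.20 ± 0.90, exact test, adjusted p = 0.0375). The beta chain Lamb1 stood at 0.90 ± 0.64 (adjusted p = 0.00430) and was not called for its size, and Lamc1 exceeded it by 0.79 ± 0.48 (exact test, adjusted p = 0.0278). The type IV collagens Col4a1 (2.52 ± 0.65) and Col4a2 (1.96 ± 0.49) rose. The linker nidogen (Nid1) rose by 2.28 ± 0.62 at its brightest probe, and its 3 probes gave ratios from 0.41 to 2.28. Of 27 laminin receptor and focal adhesion genes, 4 rose and 1 fell (14.8% and 3.70%), beside 9.54% and 5.94% of all genes. Integrin alpha-6 (Itga6), a laminin receptor, rose most of them by 3.55 ± 0.72, and the laminin-binding Bcam rose by 1.51 ± 0.59. Tln2 fell by 1.18 ± 0.28. Among those not called were Itgb1 (0.02 ± 0.35), Itga7 (-0.09 ± 0.34) and Dag1 (-0.38 ± 0.45), and the median of the list was 0.35.

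Adam10 encodes a membrane protease that cuts Notch, cadherins and chemokines from the cell surface. Its signals ran from 10.80 to 12.07 with a median of 11.47 in HCC, against 10.20 to 10.71 with a median of 10.37 in control liver. No tumor overlapped the controls, with tumor 7 the closest to them. Its log2 ratios on arrays 1 to 8 were 1.46, 1.28, 1.74, 1.05, 0.76, 1.00, 0.28 and 0.90. Adam10 rose by 1.06 ± 0.45 (2.08-fold, adjusted p = 3.12e-04), close to the size that a call requires. The call was lost without tumor 3 (0.96), with the scanner's processed signals (0.99) and in the second row of the slide alone (0.73), for size in each case, with adjusted p = 7.82e-04, 7.09e-04 and 0.0348 in that order.

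Adam17 encodes the protease that releases TNF and several ligands of the EGF receptor. Both of its probes were dim: the brighter was well above background in 2 tumors and 7 controls, and the dimmer in 0 tumors and 4 controls. The brighter probe gave signals between 6.12 and 6.48 (median 6.32) in HCC and between 6.30 and 6.61 (median 6.46) in control liver, near the lowest signals called well above background (on average 5.99 in HCC and 5.98 in controls). Adam17 had a log2 ratio of -0.13 ± 0.21 (95% confidence interval -0.33 to 0.06, adjusted p = 0.227). A rise of the size seen for Adam10 lies outside this interval, but signals this near the background compress any ratio, and with the scanner's processed signals the ratio was -0.95. The ratio of Adam10 exceeded that of Adam17 by 1.19 ± 0.44 on 8 of 8 arrays (exact test, adjusted p = 0.0156).

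Both partners of Adam17 set against it had higher ratios on 8 of 8 arrays, with differences of -1.51 ± 0.21 for Adam17 minus Rhbdf2 and -1.08 ± 0.23 for Adam17 minus Timp3 (exact test, adjusted p = 0.0156 each). Adam17 was near background, where ratios are compressed, so these differences say little about Adam17 itself. Rhbdf2, which takes ADAM17 to the cell surface, rose by 1.38 ± 0.22 (adjusted p = 4.76e-06), and its relative Rhbdf1 by 1.61 ± 0.60. Timp3, an inhibitor of both proteases, had a log2 ratio of 0.94 ± 0.26 (adjusted p = 6.49e-05) and fell short of the size of a call, and Timp1, an inhibitor of ADAM10 and of matrix proteases, rose by 2.69 ± 0.43. Adam9 had a log2 ratio of -0.34 ± 0.39 (adjusted p = 0.0519), while Adam8, found mainly on myeloid cells, rose by 2.35 ± 0.82. In all, 8 of 24 tested shedding partners rose and 1 fell (33.3% and 4.17%), with a median of 0.66. Of all genes, 9.54% rose and 5.94% fell. The partner that fell was Tspan33 (-1.38 ± 0.95). Among those not called were Tspan17 (0.99), Tspan5 (0.80), Tspan15 (0.30), Tspan14 (0.14) and Pcsk7 (-0.995). Of 32 tested genes whose proteins ADAM10 or ADAM17 cut, 8 rose and 1 fell (25.0% and 3.1%), with a median of 0.38. The chemokine Cx3cl1 (2.93 ± 0.88), the amyloid precursor App (1.80 ± 0.55) and the EGF receptor ligand Hbegf (1.65 ± 0.65) rose, and Notch1 fell by 1.76 ± 0.63. Cleavage of these proteins was not measured.

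Mapre1 encodes EB1, which tracks the growing ends of microtubules and recruits other proteins there. The brighter of its probes gave signals from 10.12 to 10.91 with a median of 10.47 in HCC, against 9.13 to 10.12 with a median of 9.60 in control liver. The lowest tumor, tumor 4, lay just under the control of array 5, and on each array the tumor was above its own control. The ratios on arrays 1 to 8 were 1.22, 1.56, 0.96, 0.51, 0.72, 0.55, 0.71 and 1.21, and averaged 0.93 ± 0.37 (1.90-fold, adjusted p = 2.79e-04), under the size of a call. The dimmer probe gave 0.48 ± 0.36, lower than the brighter on 8 of 8 arrays.

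The other EB genes, Mapre2 (0.41 ± 0.70, adjusted p = 0.141) and Mapre3 (0.08 ± 0.38, adjusted p = 0.642), did not pass. Mapre1 exceeded Mapre3 on 8 of 8 arrays (0.85 ± 0.71, exact test, adjusted p = 0.0156) and did not pass against Mapre2 (0.52 ± 0.87, exact test, adjusted p = 0.154). Of 32 tested genes of microtubule ends and dynamics, 10 rose and 0 fell, with a median of 0.60. The beta-tubulin Tubb6 (1.89 ± 0.36) and the spindle protein Tacc3 (1.85 ± 0.43) rose. The brighter probe of Tubb2b gave 3.33 ± 0.84 and its other probe 0.10, and tubulin genes are near-identical copies whose signals can mix.

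Rhoa encodes the small GTPase that drives stress fibres and actomyosin contraction. Its brighter probe gave signals from 12.57 to 13.21 with a median of 12.94 in HCC, against 12.17 to 12.52 with a median of 12.27 in control liver. The groups did not overlap, although the lowest tumor and the highest control were close. The log2 ratio of this probe was 0.62 ± 0.24 (1.53-fold, adjusted p = 5.59e-04). The dimmer probe, also well above background on all arrays in both channels, gave -0.32 ± 0.35, above 0 only on array 8 (limma over all probes, adjusted p = 0.0460). The direction of Rhoa therefore depends on the probe, and the mean of both probes was 0.15.

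Among its nearest relatives, Rhob had a log2 ratio of 0.70 ± 0.41 (adjusted p = 0.00224). It did not differ from that of the brighter probe of Rhoa beyond the spread (-0.08 ± 0.43, exact test, adjusted p = 0.602). The dimmer probe of Rhoa (-0.32) was not compared, and the probes of Rhob gave 0.43 and 0.70. Rhoc, linked to motility of cancer cells, rose by 2.36 ± 0.45 (adjusted p = 3.94e-06), and its 2 probes gave 2.16 and 2.36. The ratio of Rhoa lay below that of Rhoc on 8 of 8 arrays, by -1.74 ± 0.50 for Rhoa minus Rhoc (exact test, adjusted p = 0.0156).

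**Figure D2:**
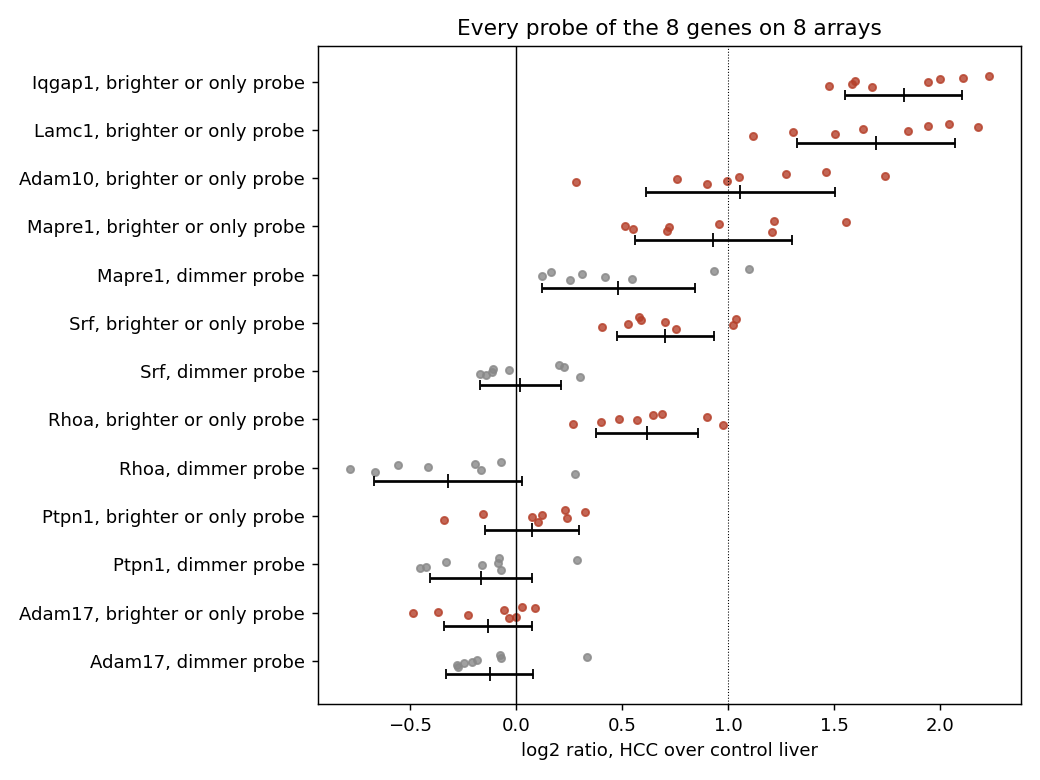
Log2 ratio of HCC over control liver (x axis) of the 13 probes on 8 arrays, with the probe used for the gene in red and the dimmer probe in grey; bars give the mean and SD, and the dotted line marks the size of a call. The dimmer probe lies to the left of the brighter one for Mapre1, Srf, Rhoa and Ptpn1, and for Rhoa it lies on the other side of 0 (-0.32 against 0.62).

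Srf encodes serum response factor, which binds the CArG box and turns on actin, its partners and immediate early genes. The 300 bases around a start site of Srf (250 before, 50 after) are shown because Srf is known to act on its own promoter. CArG boxes, searched on both strands, are in capitals. The window lies on the minus strand of GRCm38.p6 at chr17:46556113-46556412, and the sequence is from RefSeq. It lies inside the span of the gene (chr17:46546838-46558267) and not at its outer end.
Srf: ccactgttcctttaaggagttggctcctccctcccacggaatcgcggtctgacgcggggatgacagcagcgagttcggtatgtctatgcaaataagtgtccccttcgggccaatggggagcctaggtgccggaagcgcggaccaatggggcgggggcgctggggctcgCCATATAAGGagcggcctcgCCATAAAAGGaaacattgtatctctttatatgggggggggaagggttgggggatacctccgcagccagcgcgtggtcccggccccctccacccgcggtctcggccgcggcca
The 2 matches do not overlap each other. Of 32851 promoter windows of this length, 1.63% held a match. Promoter windows were found for 7 of the 8 genes, Rhoa having 2, and those of the other genes held 0 matches. The windows of Adam10 and Iqgap1, the called genes with an entry in the table, are shown for comparison, with the GC box (GGGCGG, both strands) in capitals. They lie at chr9:70678732-70679031 on the plus strand and at chr7:80803282-80803581 on the minus strand of GRCm38.p6. The window of Iqgap1 also lies inside the span of its gene (chr7:80711583-80815549).
Adam10: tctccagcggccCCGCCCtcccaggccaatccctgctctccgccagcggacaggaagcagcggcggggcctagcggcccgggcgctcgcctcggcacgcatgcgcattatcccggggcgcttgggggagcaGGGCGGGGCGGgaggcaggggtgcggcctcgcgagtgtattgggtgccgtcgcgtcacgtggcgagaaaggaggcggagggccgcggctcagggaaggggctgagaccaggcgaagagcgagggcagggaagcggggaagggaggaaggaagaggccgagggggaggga
Iqgap1: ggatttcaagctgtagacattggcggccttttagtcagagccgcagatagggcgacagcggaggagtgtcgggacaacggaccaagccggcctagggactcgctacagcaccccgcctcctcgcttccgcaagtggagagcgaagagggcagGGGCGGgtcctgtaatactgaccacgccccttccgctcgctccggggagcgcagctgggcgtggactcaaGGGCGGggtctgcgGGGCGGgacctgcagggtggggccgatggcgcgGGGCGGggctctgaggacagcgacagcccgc
Adam10 held 3 GC boxes, 2 of which overlap by 1 base, and Iqgap1 held 4. Such a match was present in 35.7% of all windows, and also in those of Adam17 and Ptpn1, which did not pass the test. A match is a string of letters and not a measured binding site.

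The brighter probe of Srf gave signals from 9.31 to 9.89 with a median of 9.76 in HCC, against 8.78 to 9.18 with a median of 8.89 in control liver. Every tumor lay above every control. The log2 ratio was 0.70 ± 0.23 (1.63-fold, adjusted p = 2.20e-04), under the size of a call. The second probe of Srf, of nearly the same mean brightness (9.23 against 9.28), gave 0.02 ± 0.19, with 3 arrays above 0 and 5 below. The difference of the first minus the second was 0.68 ± 0.25 on 8 of 8 arrays (exact test, adjusted p = 0.00977 over the 5 genes with 2 probes). Probes of Rhoa (0.94 ± 0.31), Mapre1 (0.45 ± 0.33) and Ptpn1 (0.24 ± 0.19) differed with the same adjusted p, from the smallest that 8 arrays allow. Those of Adam17 did not (-0.01 ± 0.22, exact test, adjusted p = 0.953). This comparison of probes was chosen after their values had been seen.

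Cofactors and targets of SRF give the other part of this pathway. The cofactor Mrtfb, which carries the actin signal to SRF, rose by 1.14 ± 0.54 at its brighter probe, while its other probe gave 0.08, and its relative Mrtfa had a log2 ratio of 0.62 ± 0.28 (adjusted p = 0.00101). At the brighter probes, Srf did not differ from Mrtfa beyond the spread (0.09 ± 0.43, exact test, adjusted p = 0.602), nor from Mrtfb (-0.44 ± 0.62, exact test, adjusted p = 0.0568). The second probe of Srf gave 0.02, against 0.60 and 0.62 for the probes of Mrtfa, and was not compared. Of 7 tested cofactors, 3 rose and 0 fell, Fhl2 most (2.86 ± 1.00). Of 38 tested target genes other than Srf, 14 rose and 1 fell (36.8% and 2.63%), with a median of 0.70. The shares over all genes were 9.54% and 5.94%. The actin bundler villin (Vil1, 3.77 ± 1.22), the stress gene Ier3 (3.27 ± 0.68) and the actin-binding Tagln2 (3.17 ± 0.27) rose most. Tpm1 fell by 1.09 ± 0.27. Among the targets not called were Fos (0.89 ± 0.93), Vcl (0.60 ± 0.51), Egr1 (0.55 ± 1.19), Tln1 (-0.14 ± 0.28) and Cnn1 (-0.70 ± 0.39).

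Ptpn1 encodes PTP1B, a phosphatase that switches off the insulin and leptin receptors. Its brighter probe gave signals from 9.39 to 10.14 with a median of 9.70 in HCC, against 9.35 to 9.86 with a median of 9.70 in control liver. The groups overlapped over nearly all their range. The log2 ratio was 0.08 ± 0.22 (95% confidence interval -0.13 to 0.28, adjusted p = 0.506), and the dimmer probe gave -0.17 ± 0.24 (limma over all probes, adjusted p = 0.148). A 2-fold change lies outside this interval. Ptpn2, the closest relative of Ptpn1, stood at 0.98 ± 0.42 (adjusted p = 3.67e-04), just under 2-fold, and its other probe gave 0.50. Ptpn1 lay below Ptpn2 on 8 of 8 arrays (-0.91 ± 0.48 for Ptpn1 minus Ptpn2, exact test, adjusted p = 0.0156).

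Of 24 tested tyrosine phosphatases, 6 rose and 2 fell, with a median of 0.59. Ptpn14, a regulator of the Hippo pathway, rose by 2.69 ± 1.03, and the receptor phosphatase Ptprd fell by 2.02 ± 0.31. Of 25 substrates of PTP1B and insulin signalling genes, 1 rose (the adaptor Grb10, 1.05 ± 0.70) and 1 fell (Egfr, the EGF receptor, by 1.69 ± 0.81), with a median of -0.03. Both shares are 4.00%, that is 1 gene each, beside 9.54% and 5.94% of all genes. On the adjusted p alone, 5 of the 25 were higher and 8 lower, where 28.7% and 25.1% of all genes were.

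**Figure D3:**
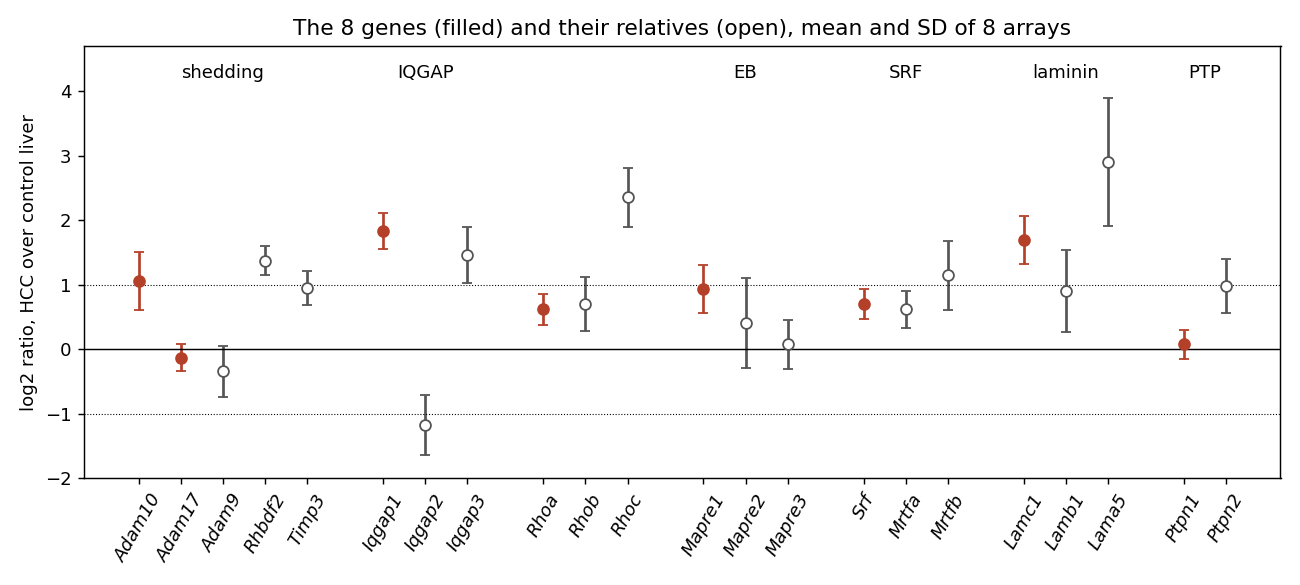
Mean log2 ratio of HCC over control liver (y axis) with its SD over 8 arrays for the 8 genes (filled) and their closest relatives or partners (open); dotted lines mark the size of a call in each direction. Iqgap1 (1.83) and Iqgap2 (-1.18) lie on opposite sides of 0, and Rhoc (2.36) and Lama5 (2.90) lie above Rhoa (0.62) and Lamc1 (1.70).

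Ordered by log2 ratio, the 8 genes ran Iqgap1, Lamc1, Adam10, Mapre1, Srf, Rhoa, Ptpn1 and Adam17. Of the 7 neighbouring pairs, 2 differed beyond the spread over arrays. Lamc1 exceeded Adam10 by 0.64 ± 0.35 and Rhoa exceeded Ptpn1 by 0.54 ± 0.30, each on 8 of 8 arrays (exact sign-flip test, adjusted p = 0.0273). Without array 8 neither passed (0.70 and 0.50, exact test, adjusted p = 0.0547), although both kept their direction on each of the 7 arrays and had the smallest unadjusted p that 7 allow. The differences between Adam10 and Mapre1 (0.13 ± 0.45), Mapre1 and Srf (0.23 ± 0.38), Srf and Rhoa (0.09 ± 0.32) and Ptpn1 and Adam17 (0.21 ± 0.31) did not pass (exact test, adjusted p = 0.208 to 0.484). This order is that of the brightest probes and would change with the dimmer probes of Rhoa, Srf and Mapre1.

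The SDs of the 8 genes across arrays, 0.21 to 0.45, lay between the percentiles 14.7 and 63.3 of the SDs of all genes, Adam17 having the smallest and Adam10 the largest. The 6 genes with the highest ratios were above 0 on all 8 arrays, where 17.1% of all genes were, and 0 were below 0 on all arrays, where 16.6% of all genes were. At every probe this held for 4 genes, since the other probe of Rhoa was above 0 on 1 array and that of Srf on 3. Adam10 averaged 1.38 ± 0.29 in the first row of the slide (arrays 1 to 4) and 0.73 ± 0.32 in the second (SD, n = 4 each; exact permutation test, p = 0.0286, the smallest that 4 against 4 allows; adjusted p = 0.229 over the 8 genes). Lamc1 averaged 1.95 ± 0.23 and 1.44 ± 0.31 (exact permutation test, adjusted p = 0.229). In both rows the means of Iqgap1 and Lamc1 exceeded 1, and those of Mapre1, Srf and Rhoa were above 0.

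Between the genes, 28 pairs were correlated over the 8 arrays. Pearson's r ranged from -0.24 to 0.79, 26 pairs were above 0, and 0 passed after adjustment (4 had an unadjusted p under 0.05 by the exact permutation test). The highest was that of Iqgap1 with Lamc1 (r = 0.79, exact permutation p = 0.0252, adjusted p = 0.314; Spearman's coefficient 0.76, exact permutation p = 0.0368, adjusted p = 0.243). Without arrays 1 and 7, the farthest from the median of Iqgap1, r was 0.80, and with ratios centred within the rows of the slide it was 0.65 (exact permutation p = 0.0822). Within the first row r was 0.77 and within the second 0.58, over 4 arrays each.

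Over all other genes, the one whose ratios lay closest to those of Iqgap1 by root mean square difference over the 8 arrays was Dapp1 (0.18 on the log2 scale). For Lamc1 it was Sh3bgrl3 (0.15), for Adam10 Mif (0.18) and for Mapre1 Tcirg1 (0.15). For Srf it was Anxa9 (0.16), for Rhoa Usp25 (0.12), for Ptpn1 Fiz1 (0.10) and for Adam17 Cdc5l (0.09).

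Bulk RNA does not separate a change in the cells present from a change in each cell, so that fewer cells of a type and less RNA per cell cannot be told apart. Several of the 8 genes, Iqgap1, Lamc1 and Rhoa among them, are also expressed by fibroblasts, endothelial cells and leukocytes. Of 10 stellate cell and fibroblast markers, 5 were higher and 0 lower in HCC, with list means of 9.33 to 11.29 in tumors and 9.24 to 10.06 in controls on the log2 scale. The higher ones were Col1a1, Col1a2, Col3a1, Lum and Pdgfrb. Among those not called, Dcn (-0.80), Lrat (-0.76), Rgs5 (-0.31) and Des (-0.28) were below 0 and Pdgfra (0.44) above, so the markers of this list did not move together. On array 8 this list was lower in HCC than in control (-0.59 on the log2 scale, against 0.93 to 2.05 on the others), and on that array the log2 ratio of Iqgap1 was 1.68 and that of Lamc1 1.12, the lowest of its 8 values. Of 8 endothelial markers 1 was higher (Emcn) and 1 lower (Stab2), with list means of 8.84 to 9.68 in tumors and 9.07 to 9.26 in controls. Of 7 tested Kupffer cell and macrophage markers 0 were higher and 4 lower, with list means of 9.21 to 11.02 in tumors and 10.65 to 12.09 in controls. Of 7 tested bile duct markers 3 were higher and 0 lower (7.95 to 10.24 in tumors, 7.76 to 8.37 in controls), and of 10 hepatocyte markers 0 were higher and 4 lower (14.88 to 15.42 in tumors, 16.06 to 16.27 in controls). Of 6 tested neutrophil markers 3 were higher and 0 lower (8.32 to 10.46 in tumors, 7.83 to 8.65 in controls), and of 6 tested lymphocyte markers 0 were higher and 0 lower by limma (7.51 to 8.79 in tumors, 7.62 to 8.70 in controls). The part of these cells in the ratios of the 8 genes was not tested.

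**Figure D4:**
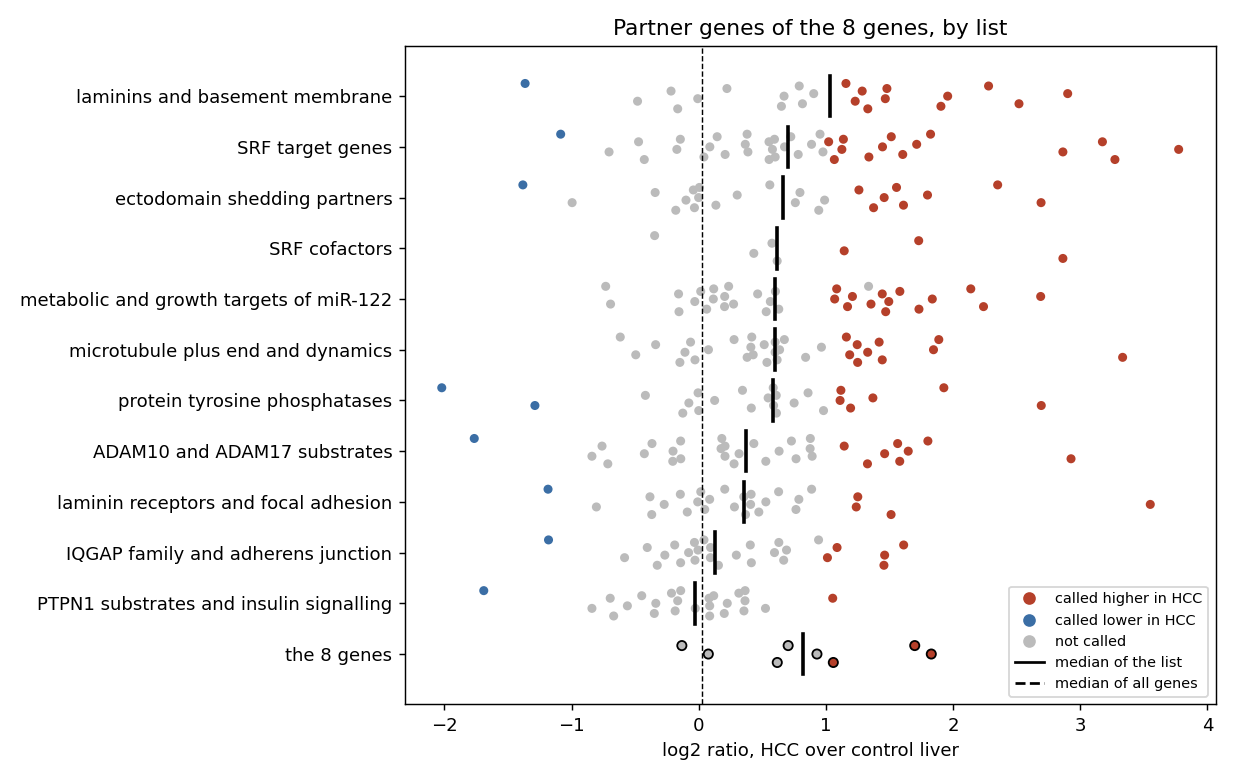
Log2 ratio of HCC over control liver (x axis) of each tested gene in 11 lists of partner genes, in order of their medians, and of the 8 genes at the bottom; red and blue points were called higher and lower, bars mark list medians and the dashed line the median of all genes (0.03). The list of laminins and basement membrane has the highest median (1.03) and that of PTP1B substrates and insulin signalling the lowest (-0.03).

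Over the 338 distinct genes tested in the 13 lists, 101 (29.9%) were higher and 9 (2.66%) lower, with a median of 0.53. Of all genes tested, 9.54% were higher and 5.94% lower. The published targets of miR-122 in metabolism and growth are themselves among the 13 lists, and so part of the 338 genes. Of these targets, 14 of 33 tested were higher (42.4%) and 0 lower, with a median of 0.60. Slc7a1 (2.69 ± 0.72), Aldoa (2.24 ± 0.36) and Agpat1 (1.84 ± 0.17) led them beside Fundc2, whose 2 probes gave 0.71 and 2.14. The 8 genes had 3 of 8 higher (37.5%) and a median of 0.82 (0.53 with all tested probes averaged). The lists share genes and the members were chosen with results known, so that no test was made of the difference between them.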

How the data were processed

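RNA of 8 HCC (Cy5) and of control liver (Cy3) was measured on 8 arrays of 2 colours. The deposited scanner files hold median spot and background signals as intensity, and processed signals, also intensity, that the authors' software had background-subtracted, detrended and dye-normalized per the file headers. The deposited log10 ratio is that of processed red over green: where it is not 0, it differed from that ratio by at most 4.09e-07. Spots were read with Feature Extraction, version 10.9 per the submitters' processing notes and 10.9.1.1 per the file headers. In R 4.3.3 with limma 3.58.1, median signals were corrected by normexp (offset 50), then each array by loess, where control and outlier spots had weight 0 before they were left out. Channel values were taken after Aquantile normalization. No spot was saturated (0 flagged).

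Of 55681 probes, 26582 were named by matching their accession to RefSeq on GRCm38.p6, and 29292 were tested (well above background in either channel on 4 or more arrays). The brightest tested probe stood for its gene. limma (lmFit, eBayes) tested each mean log2 ratio against 0, with Benjamini-Hochberg adjustment over 14312 genes. Differences between genes or probes on the same arrays were tested by exact 2-sided sign flips, adjusted over the 7 neighbouring pairs, the 16 pairs of relatives or the 5 pairs of probes. A channel not well above background on any array gives only a bound, open to dye bias, for which each array's dim signal was raised to the lowest one well above background where it lay under that. Errors are SDs over 8 arrays, whose number limits the precision.

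The genes and lists were chosen with earlier results of these data known. Genes named are the 8 genes, 14 relatives, up to 4 called genes of each list with the largest ratios, the gene nearest to each of the 8, and cell type markers. Some other genes of the lists that fell or were not called are named beside those that rose. Of the 13 lists, 2 are not reported here by themselves. Alternatives were 2 other background corrections, the processed signals, 2 other normalizations, 2 other filters, the mean of all probes, another variance model, array weights, the slide row as a block or alone, and left-out arrays. The pairs of relatives, the pairs of probes and the comparison of slide rows were added after the data had been seen. The procedure was tested on simulated data.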

Additional observations from a re-analysis of the deposited data

Results flagged for a closer look

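Of 86 sets of 8 values examined, 4 had 1 array far from the rest, and chance alone marks about 1 set in 20. The dimmer probe of Adam17 had a log2 ratio of 0.34 on array 2, against -0.28 to -0.07 on the others, at signals below or near background. The cofactor Mrtfb stood at 2.38 on array 3, against 0.60 to 1.21. The non-muscle myosin gene Myh9 stood at 2.01 on array 1, against 0.86 to 1.41. The chemokine Cx3cl1 stood at 0.90 on array 8, against 2.72 to 3.68. That array had the dimmest tumor and raised muscle transcripts in both channels, more so in its control. The part of these in the value was not tested.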

How the results depend on the processing

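Iqgap1 (1.67 to 1.99) and Lamc1 (1.44 to 1.95) kept their call under all 25 alternatives run. Ptpn1 (-0.05 to 0.14, 25 alternatives) and Adam17 (-0.95 to -0.08, 24 alternatives) were not called in either direction under any alternative. Adam10 ranged from 0.73 to 1.38 and lost its call under 3 alternatives, Mapre1 ranged from 0.71 to 1.06 and was called in the first slide row alone (1.06), and Srf (0.36 to 0.75) and Rhoa (0.15 to 0.74) stayed above 0. With the adjusted p alone as the rule, 6 of the 8 genes, 4101 genes higher and 3594 lower of all genes, and 189 higher and 41 lower of the list genes were called, since no size was asked. With the scanner's processed signals 1533 of all genes and 17 list genes were lower, against 850 and 9, and the second slide row alone, with 4 arrays, gave 848 genes higher against 1365. The mean of all tested probes lowered the median of the 8 genes to 0.53, since the dimmer probes had lower ratios. Signs turned, all in results that had not been called, for Mapre3 (-0.032 with processed signals, -0.0102 in the first slide row alone), Ptpn1 (-0.046 with the mean of probes), Mapre2 (-0.084 in the second slide row alone) and the difference of Srf minus Rhoa (-0.11 with processed signals); the cause was not tested. Leaving out 1 array at a time gave 2 to 3 of the 8 genes higher, a median of 0.75 to 0.85, 1292 to 1532 genes higher and 836 to 902 lower. Without array 8, 0 neighbouring pairs passed, against 2, at differences of 0.70 (Lamc1 minus Adam10) and 0.50 (Rhoa minus Ptpn1), against 0.64 and 0.54: both had the smallest unadjusted p that 7 arrays allow, so the fewer arrays account for the lost calls. Without array 8, without arrays 7 and 8, and with arrays 1 and 2 averaged, 3 of the 8 genes were higher (medians of 0.79, 0.83 and 0.78). No paired analysis was possible because the labels form 1 group of samples, beyond the pairing of tumor and control by array that every log2 ratio here already holds. Signal over background limits Adam17 most.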
